A study of Mus musculus with 2 samples.

Results

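The LIM homeobox genes described here are Lhx1, Lhx2, Lhx3, Lhx4, Lhx5, Lhx6, Lhx8, Lhx9, Isl1 and Isl2, taken by name from both the gene and the transcript tables. They are 10 of 43346 measured genes, and the related Lmx1 genes were left out. RNA came from the midbrain of B6NCrl mouse embryos of mixed sex at embryonic day 12.5, and no allele or treatment is named. The 2 libraries form 1 group, with 120 embryos pooled in replicate 1 and 88 in replicate 2. Both started from 10 ng of RNA above 200 nt in size, carry added spike-in RNA and are labelled total RNA. The design gives levels within 1 tissue and a comparison of 2 pools, which is a comparison of libraries and not of conditions. In such bulk tissue, fewer cells of a type and less RNA per cell cannot be told apart.

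LIM homeodomain proteins are transcription factors with a pair of LIM domains, which bind other proteins, and a homeodomain, which binds DNA. They act in complexes built around the LIM domain-binding proteins, and combinations of them mark classes of neurons as they leave the cell cycle. In the nervous system they are known for setting axon paths and transmitter type, and several also build the eye, pituitary, limb or gonad.

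The family falls into 5 pairs of close relatives, Lhx1 with Lhx5, Lhx2 with Lhx9, Lhx3 with Lhx4, Lhx6 with Lhx8, and Isl1 with Isl2. The homeobox, the 180 bases that encode the homeodomain, shows the pairing. Its last 60 bases are printed below because they hold the codons of the DNA-recognition helix, and because the point where Lhx9 transcripts part lies among them. Capitals mark bases that differ from the other gene of the pair.
Lhx1: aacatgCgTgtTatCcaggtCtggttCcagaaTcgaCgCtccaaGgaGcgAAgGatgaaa
Lhx5: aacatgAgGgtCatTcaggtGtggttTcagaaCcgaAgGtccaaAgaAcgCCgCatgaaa
Lhx2: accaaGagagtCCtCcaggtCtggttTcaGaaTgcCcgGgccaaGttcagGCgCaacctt
Lhx9: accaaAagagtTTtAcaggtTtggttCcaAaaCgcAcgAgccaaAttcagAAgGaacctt
Lhx3: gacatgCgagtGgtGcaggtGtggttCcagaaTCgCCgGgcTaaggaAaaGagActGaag
Lhx4: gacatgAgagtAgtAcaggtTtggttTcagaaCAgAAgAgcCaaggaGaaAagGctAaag
Lhx6: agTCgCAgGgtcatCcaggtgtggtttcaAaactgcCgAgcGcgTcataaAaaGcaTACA
Lhx8: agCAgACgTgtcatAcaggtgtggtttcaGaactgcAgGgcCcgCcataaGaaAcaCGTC
Isl1: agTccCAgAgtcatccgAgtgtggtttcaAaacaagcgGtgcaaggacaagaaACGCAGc
Isl2: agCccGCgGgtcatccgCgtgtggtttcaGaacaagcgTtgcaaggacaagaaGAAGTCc
These bases were read from GENCODE M21 transcripts on GRCm38, 5′ to 3′ on the coding strand.

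Within a pair, between 13 and 17 of the 60 bases differed. Over the whole homeobox, identity ran from 74.4% for Lhx6 and Lhx8 to 83.3% for Isl1 and Isl2, and Lhx2 and Lhx9 were 79.4% identical. Genes of different pairs were 50.6% to 70.0% identical, with a median of 53.1%. The longest exact run shared by the transcripts of a pair was 14 to 23 bases, and the longest between genes of different pairs was 65 bases, shared by Lhx5 and Lhx9. The authors' posterior SD of the count, which measures how far reads could be moved between genes, was 0 in both libraries for 9 of the 10 genes. Lhx3 was the exception.

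An intron splits the homeobox in 8 of the 10 genes. In each of the 8, a junction falls after base 138 of the homeobox, Lhx6 and Lhx8 have a further one after base 42, and the homeoboxes of Isl1 and Isl2 each lie in 1 exon. The printed stretches therefore span an intron in 8 genes, at chr11:84520408-84521708 on the minus strand for Lhx1, chr5:120435611-120436349 on the plus strand for Lhx5 and chr2:38360086-38368883 on the plus strand for Lhx2. Those of Lhx9 and Lhx4 lie on the minus strand at chr1:138831583-138832719 and chr1:155704831-155705189. On the same strand are those of Lhx3 at chr2:26202221-26202367, Lhx6 at chr2:36091095-36091337 and Lhx8 at chr3:154311682-154316760. The stretch of Isl1 lies in exon 4 of 6 at chr13:116303091-116303150 on the minus strand, and that of Isl2 in exon 4 of 6 at chr9:55544255-55544314 on the plus strand.

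Estimated counts totalled 29430493 and 37381984, with 28212923 and 36082643 assigned to genes and 4.14% and 3.48% to spike-in RNA. Counting error alone did not cover the differences between the pools, since chi-square values per gene averaged 8.80 (median 1.75). The SD over genes of the log2 ratio between them was 0.80 for 4534 genes at a mean of 10 to 100 counts, 0.46 for 3350 genes at 100 to 500, 0.18 for 5211 genes at 500 to 2000 and 0.12 for 3843 genes at 2000 to 10000. The label midbrain was checked against its markers: 12 of 13 midbrain and isthmus genes were at 1 TPM or more in both libraries, and 13 of 14 hindbrain and spinal cord genes were under 1 TPM in both. Markers of the neighbouring forebrain were present too, with 10 of 10 thalamus and pretectum, 10 of 12 hypothalamus and prethalamus, and 8 of 10 telencephalon genes at 1 TPM or more in both. TPM, the authors' abundance scaled to transcript length and library, is a level per length, so it can be compared between genes.

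Levels spanned a wide range, and 5 genes carried nearly all of the family's RNA. Lhx2, Lhx9, Lhx1, Lhx5 and Isl1 together made up 97.3% of the summed TPM of the 10 genes in replicate 1 and 95.6% in replicate 2. The sum was 319 and 273 TPM (296 ± 32.2, SD, n = 2). Lhx2 supplied 33.5% and 33.3% of it and Lhx9 26.5% and 26.7%, so these 2 genes held nearly fixed shares while the sum differed.

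**Figure D1:**
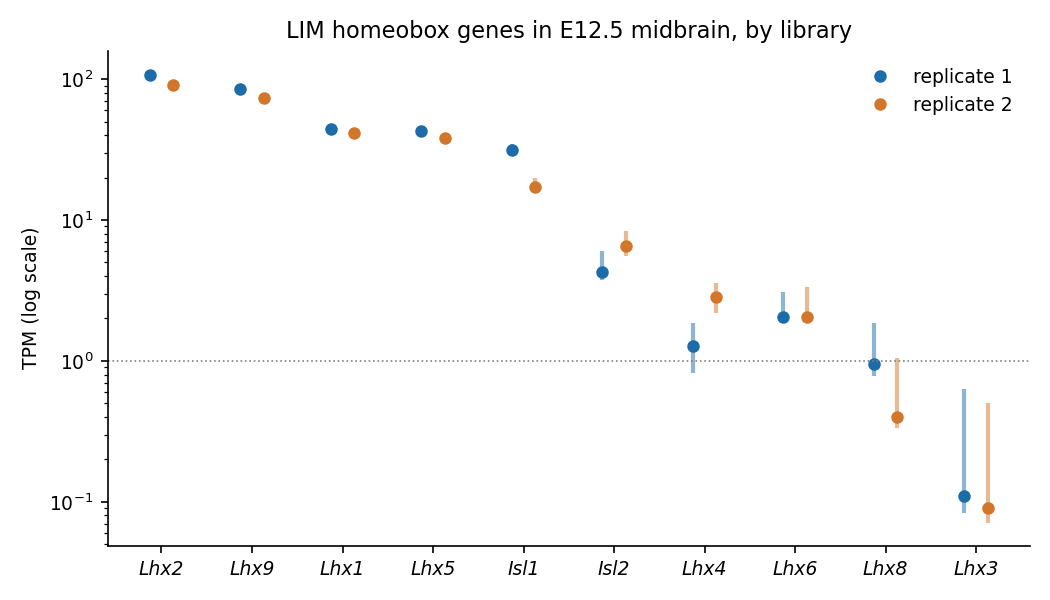
Level of each LIM homeobox gene in TPM on a log axis, with 1 point per library, the authors' 95% intervals as bars and a dotted line at 1 TPM. Lhx2, Lhx9, Lhx1, Lhx5 and Isl1 lie above 17 TPM in both libraries, and Lhx8 and Lhx3 lie under 1 TPM in both. The interval of a low gene can lie mostly above its point, because the intervals come from the posterior distribution.

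Lhx2, a regulator of cortex, eye and thalamus, was the most abundant, at 107 and 90.9 TPM in replicates 1 and 2 (98.9 ± 11.3, SD, n = 2). It lay above 93.1% and 91.4% of nuclear protein-coding genes. Its relative Lhx9, known in the dorsal midbrain, the thalamus and the gonad, was at 84.5 and 73.0 TPM (78.8 ± 8.15). Both genes were higher in replicate 1, and the lowest Lhx2 library lay above the highest Lhx9 library. Lhx2 exceeded Lhx9 by 0.32 ± 0.02 (SD, n = 2) on the log2(TPM + 1) scale, a TPM ratio of 1.26 and 1.24.

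Lhx1 and Lhx5, which act together in the growth of Purkinje cells and spinal interneurons, stood next. Lhx1 was at 44.4 and 41.7 TPM (43.1 ± 1.91, SD, n = 2) and Lhx5 at 42.9 and 38.3 TPM (40.6 ± 3.27). The libraries of the 2 genes overlapped, so their order is not resolved. Lhx1 differed from Lhx5 by 0.08 ± 0.05 on the log2(TPM + 1) scale, the closest pair of the 5.

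Isl1, a marker of motor neurons and of many sensory and forebrain neurons, had levels of 31.3 and 17.3 TPM (24.3 ± 9.93, SD, n = 2). Isl2, its relative in motor and sensory neurons, was at 4.27 and 6.59 TPM (5.43 ± 1.64). Isl1 was higher in replicate 1 and Isl2 in replicate 2. The TPM ratio of Isl1 to Isl2 was 7.33 in replicate 1 and 2.62 in replicate 2, and their difference of 1.94 ± 0.95 on the log2(TPM + 1) scale had the widest spread of the 5 pairs. Isl1 lay above Isl2 in both libraries.

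The other 4 genes were low. Lhx4, which acts with Lhx3 in the pituitary and in motor neurons, was at 1.27 and 2.86 TPM (2.06 ± 1.12, SD, n = 2). Lhx6, known for interneurons born in the ventral telencephalon, was at 2.05 TPM in both libraries. The libraries of Lhx4 lay on either side of those of Lhx6, so their order is not resolved.

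Lhx8, known for cholinergic neurons of the ventral forebrain, was at 0.95 and 0.40 TPM, from 25 and 12 counts. Lhx3 was at 0.11 and 0.09 TPM, from 4 counts in each library, too few to test. The authors' posterior mean TPM gave a mean of 0.29 for it, against 0.10. It was the lowest of the 10 and lay above 27.6% and 26.7% of nuclear protein-coding genes. Lhx3 was under its relative Lhx4 by 1.43 on the log2(TPM + 1) scale in the mean (-1.43 ± 0.56, SD, n = 2), and Lhx6 exceeded Lhx8 by 0.88 ± 0.34. Both differences rest on levels near the pseudocount of 1 TPM.

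The pools were compared gene by gene with an exact binomial test on normalised counts, adjusted over 18939 genes. Calls needed 3 things: an adjusted p below 0.05, a difference of 1.5-fold or more, and 1 TPM or more in the mean. Among all 15199 genes at a mean of at least 1 TPM, 539 were called, or 3.55%. Of these calls 60.3% were higher in replicate 2, against 91.0% of the 1328 made with spike-in size factors. Of the 10 LIM homeobox genes 2 were called, Isl1 lower and Lhx4 higher in replicate 2. The same rule called 2.14% of genes as higher and 1.41% as lower in replicate 2. With so few members, the count of 2 says little against that background.

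Isl1 had 1103 counts in replicate 1 and 816 in the deeper replicate 2. After normalisation it was 1.75-fold lower in replicate 2 (95% interval 1.59 to 1.91), a log2 ratio of -0.80 (adjusted p = 8.06e-32, two-sided exact binomial test). Genes of similar count had an SD of 0.18 on that scale. The authors' TPM intervals, 28.2 to 34.4 in replicate 1 and 16.1 to 19.8 in replicate 2, did not overlap. A negative binomial exact test of edgeR gave an adjusted p of 0.00948. Its spread was 1 value for all genes, estimated from these same 2 libraries. With the same fold and TPM limits that test called 1.32% of genes. With spike-in size factors the log2 ratio of Isl1 was -0.53, under the fold threshold, and Isl1 was no longer called.

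Lhx4 had 68 and 207 counts. It was 2.34-fold higher in replicate 2, a log2 ratio of 1.23 with a 95% interval of 0.83 to 1.65 (adjusted p = 3.08e-09, two-sided exact binomial test). Genes of similar count had an SD of 0.46. The TPM intervals, 0.823 to 1.86 and 2.20 to 3.58, did not overlap, and the negative binomial exact test gave an adjusted p of 0.0013. The spread in that test, 1 value for all genes from these same libraries, was not fitted to genes of this count.

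For 7 of the 10 genes the ratio was under 1.5-fold. Of all genes at a mean of at least 1 TPM, 5.76% were past 1.5-fold. Lhx9 was lower in replicate 2 by a log2 ratio of -0.27 (95% interval -0.32 to -0.22), Lhx2 by -0.25, Lhx5 by -0.20 and Lhx1 by -0.12. Each of these 4 passed the exact binomial test at any fold, with an adjusted p of 5.15e-22 for Lhx9, 1.44e-13 for Lhx2, 2.05e-04 for Lhx5 and 0.00811 for Lhx1. None of the 4 passed the negative binomial exact test, where the unadjusted p was 0.162 for Lhx9, 0.202 for Lhx2, 0.324 for Lhx5 and 0.541 for Lhx1. With the main size factors their differences were thus larger than counting error. The test that also covers the spread edgeR estimated from these libraries did not call them. With size factors from the spike-in RNA in place of the main ones, all 4 differences changed sign. The adjusted p was then 0.916 for Lhx9, 0.479 for Lhx2, 0.116 for Lhx5 and 6.38e-05 for Lhx1 (exact binomial test).

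Isl2 had 122 and 211 counts and was 1.34-fold higher in replicate 2 (log2 ratio 0.42, 95% interval 0.09 to 0.75, adjusted p = 0.0483, exact binomial test). Its TPM intervals overlapped, and its adjusted p was 0.964 in the negative binomial exact test. Lhx8 was 2.64-fold lower in replicate 2 on 25 and 12 counts (log2 ratio -1.40, 95% interval -2.56 to -0.38, adjusted p = 0.0228, exact binomial test), and was not called because its mean was under 1 TPM. Its adjusted p in the negative binomial exact test was 0.287. Lhx6, at 113 and 137 counts, had a log2 ratio of -0.09 with a 95% interval of -0.46 to 0.28 (adjusted p = 0.824, exact binomial test).

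With the main size factors, 8 of the 9 genes tested had an adjusted p under 0.05 at any fold in the exact binomial test. Of these, 6 were lower and 2 higher in replicate 2. By that test 22.8% of all genes tested had an adjusted p under 0.05, and 35.1% of those at a mean of at least 1000 counts. The negative binomial exact test gave an adjusted p under 0.05 for 2 of the 9, Isl1 and Lhx4. With the fold and TPM limits it called both, and 1.32% of genes at a mean of at least 1 TPM. The authors' TPM intervals did not overlap for 5 of the 10, Lhx2, Lhx9, Lhx5, Isl1 and Lhx4. All 5 are among the 8 at a mean of at least 1 TPM. Of all genes at that mean, 16.1% had intervals apart, a share that was not taken for genes of similar count. The median log2 ratio was -0.16 over the 8 tested genes at a mean of at least 1 TPM and -0.00 over all 15199 such genes.

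**Figure D2:**
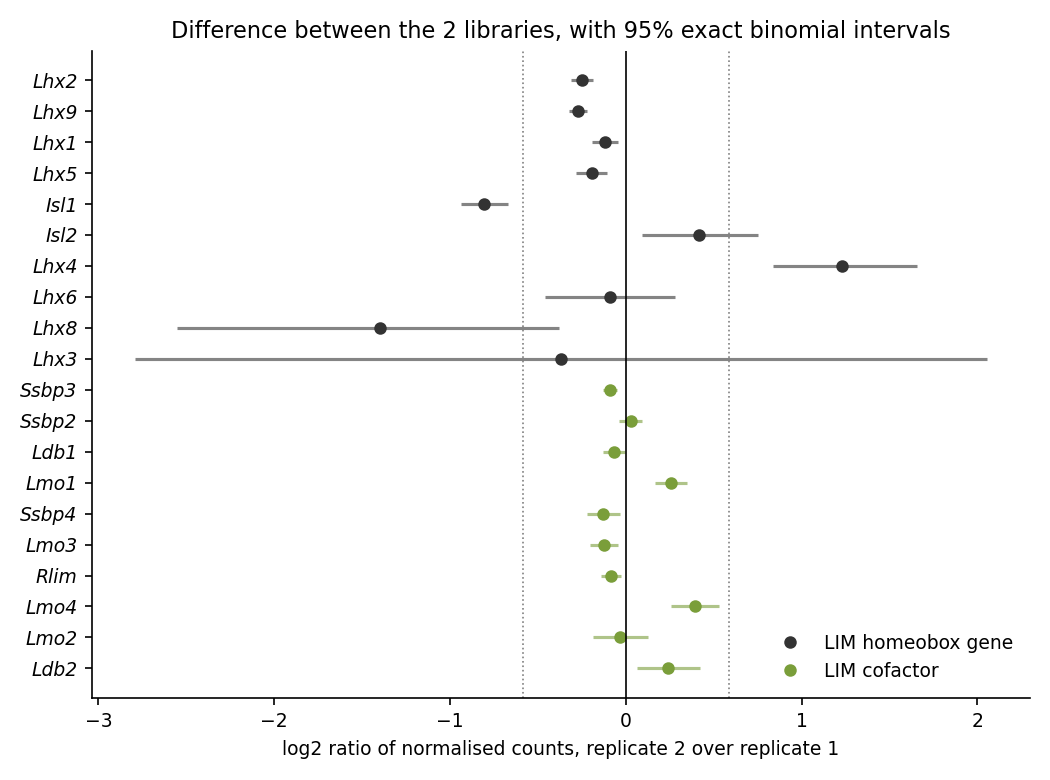
Log2 ratio of normalised counts, replicate 2 over replicate 1, for the 10 LIM homeobox genes (dark) and 10 LIM cofactors (green), with 95% exact binomial intervals as bars and dotted lines at 1.5-fold. Isl1 lies at -0.80 and Lhx4 at 1.23, both with intervals wholly beyond the dotted lines, while the intervals of Lhx8 and Lhx3 are wide.

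Of the 10 cofactor genes 0 were called by the exact binomial test, where 3.55% of all genes were, and 0 by the negative binomial test of edgeR. So few genes give no reading against that share, and with spike-in size factors 1 cofactor, Lmo4, was called. At an unadjusted p under 0.05 there were 8 by the binomial test and 0 by the negative binomial test. With adjustment, 3 were higher and 4 lower in replicate 2 at any fold by the binomial test, and the median log2 ratio was -0.05. Each cofactor was at 1 TPM or more in both libraries.

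Ldb1, the adaptor that joins LIM domains into complexes, was at 110 and 106 TPM, and its relative Ldb2 at 10.3 and 12.4 TPM. Ldb1 had a log2 ratio of -0.07 (adjusted p = 0.134, exact binomial test) and Ldb2 of 0.24 (adjusted p = 0.0329). Ssbp3, a partner that stabilises the adaptor, was the highest cofactor at 245 and 226 TPM. Ssbp2 was at 124 and 138 TPM and Ssbp4 at 68.5 and 64.1 TPM. The Ldb genes and the Ssbp genes differed between the pools by under 1.2-fold.

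The LIM-only genes Lmo1 to Lmo4 encode LIM domains without a homeodomain and compete for the same adaptor. Lmo1 was at 95.4 and 117 TPM, Lmo3 at 68.2 and 62.3 TPM, Lmo4 at 27.2 and 37.9 TPM, and Lmo2 at 23.9 and 23.5 TPM. Lmo4 had the largest ratio of the cofactors, 1.31-fold higher in replicate 2 (adjusted p = 1.33e-07, exact binomial test). Its unadjusted p was 0.0546 in the negative binomial exact test. Rlim, a ubiquitin ligase for the adaptor, was at 40.0 and 38.3 TPM.

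Set against these partners, the summed TPM of the 10 LIM homeobox genes was 2.65 times that of Ldb1 and Ldb2 in replicate 1 and 2.31 times in replicate 2. It was 1.48 and 1.14 times that of the 4 Lmo genes. The Ldb sum was 120 and 118 TPM and the Lmo sum 215 and 240 TPM. Both ratios were higher in replicate 1. These are ratios of RNA, and protein was not measured.

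The transcript tables held 49 transcripts of the 10 genes. They were sorted by whether the coding sequence holds the homeobox core, a short in-frame run of codons at the centre of the recognition helix that every one of the 10 genes has in a coding transcript. This sorting was chosen after the values were seen. The share of a transcript is the authors' isoform percent, its part of the gene's TPM.

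Lhx9 stood apart by this measure: among the transcripts that could be sorted, coding ones with a complete 3′ end that lack the core were found for Lhx9 only. Transcripts of Lhx8 holding 71.6% of its TPM could not be sorted. By mean share its most abundant transcript was one of them, but Lhx8-201, which has the core, was the most abundant in replicate 2. Lhx9-201 was at 36.3 and 30.2 TPM, or 42.2 ± 1.14% of the gene (SD, n = 2). Lhx9-202, which has the core, was at 29.2 and 22.1 TPM, or 32.4 ± 3.03%. Lhx9-201 was the higher in both libraries. The authors' intervals of the 2 transcripts met in replicate 1, at 28.9 to 35.8 TPM and 26.2 to 29.7 TPM, and were apart in replicate 2, at 23.7 to 31.0 TPM and 20.0 to 22.7 TPM. The deposited level of Lhx9-201 in replicate 1 lies above its own interval, which comes from the posterior distribution.

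Taken by class, transcripts with the core made up 49.0% and 44.2% of Lhx9 (46.6 ± 3.38%, SD, n = 2). Complete coding transcripts without it made up 43.4% and 44.7% (44.0 ± 0.877%). Transcripts with the core were the larger class in replicate 1 and the smaller in replicate 2. A transcript with a retained intron, Lhx9-206, held a further 7.71 ± 0.163%.

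The 2 kinds of Lhx9 transcript part at an exon junction inside the homeobox. Both use the same donor, whose last exon base is 138832702 of chromosome 1, on the minus strand, and then go on to different last exons. Below are the 30 bases before the junction in lower case and the 30 after it in capitals, shown because they are where the homeobox is kept or lost.
Lhx9-202: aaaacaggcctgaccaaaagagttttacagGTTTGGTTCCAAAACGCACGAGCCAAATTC
Lhx9-201: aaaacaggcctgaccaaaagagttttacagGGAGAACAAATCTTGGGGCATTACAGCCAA
The junction falls after base 138 of the 180, the position shared by the 8 split homeoboxes, so the last 42 bases come from the next exon. In Lhx9-202 that is exon 7 of 7, chr1:138829146-138831624, with 255 coding bases, and the core begins at its base 4. In Lhx9-201 it is exon 5 of 5, chr1:138825186-138828710, with 54 coding bases that continue no homeobox. The rest of each last exon is 3′ UTR.

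**Figure D3:**
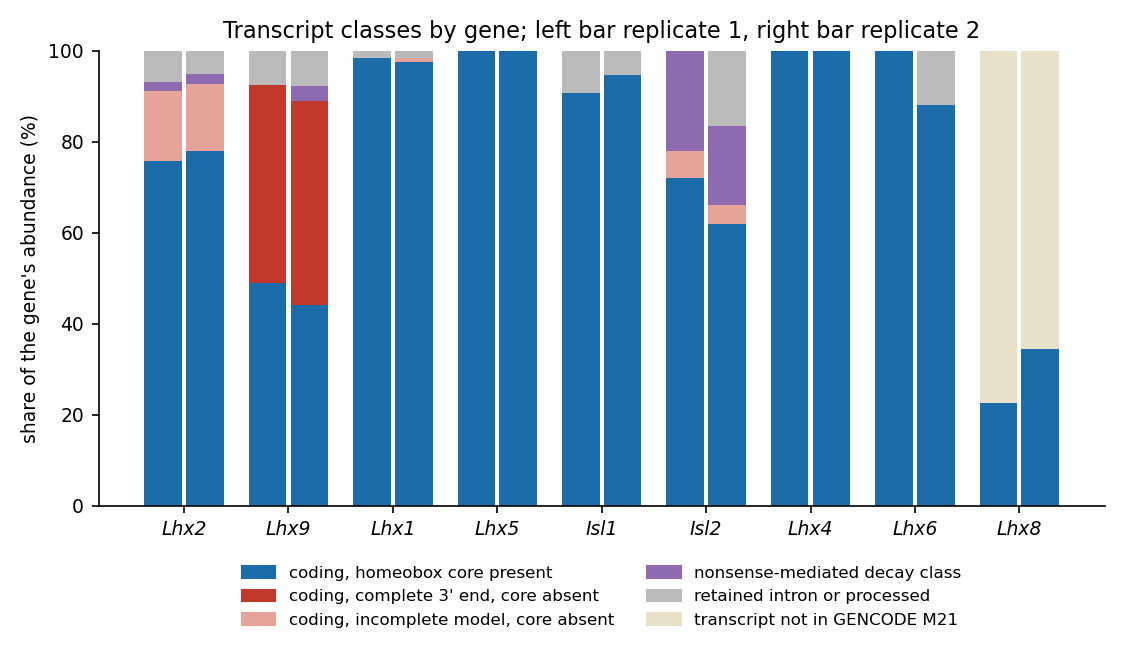
Share of each gene's TPM, in percent, by class of transcript, with replicate 1 as the left bar and replicate 2 as the right bar of each gene; Lhx3, at 4 counts per library, is not drawn. Complete coding transcripts without the homeobox core (red) appear for Lhx9 alone among the transcripts sorted, at 43.4% and 44.7%.

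The other abundant genes were mostly in transcripts with the core. The share was 100% for Lhx5, which has 1 transcript, 97.9 ± 0.658% (SD, n = 2) for Lhx1 and 92.7 ± 2.73% for Isl1. It was 76.8 ± 1.55% for Lhx2, the closest relative of Lhx9. There the largest class without the core was an incomplete model, Lhx2-202, at 15.2 ± 0.375%, whose 3′ end is not annotated and which therefore cannot be sorted.

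Isl1-201 made up 72.8 ± 5.13% of Isl1 and Isl1-202 19.9 ± 2.40%. Both were lower in replicate 2, at 21.7 and 13.2 TPM for Isl1-201 and 6.75 and 3.14 TPM for Isl1-202. The authors' intervals were apart for Isl1-201 and overlapped for Isl1-202. Isl2 had 66.9 ± 7.11% in the transcript with the core and 19.8 ± 3.30% in transcripts of the nonsense-mediated decay class.

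Both transcripts of Lhx4 code for the core and were higher in replicate 2, at 0.61 and 1.5 TPM for Lhx4-201 and 0.67 and 1.36 TPM for Lhx4-202. Lhx4-202 was the larger in replicate 1 and Lhx4-201 in replicate 2. For the low genes the shares were not stable. Lhx6-204 made up 77.6% of Lhx6 in replicate 1 and 34.8% in replicate 2, and Lhx6-205 was at 0% and 26.1%. Of the 5 transcripts of Lhx8, 4 are not in the release used for names and were not sorted.

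Noncoding genes that overlap or start within 5 kb of the LIM homeobox genes were read beside them. The highest was Lhx1os, a long intergenic noncoding RNA at chr11:84525660-84535831 on the plus strand. Its start lies 125 bases from that of Lhx1, which runs the other way at chr11:84518284-84525535, and the annotated genes do not overlap. Lhx1os was at 98.5 and 95.5 TPM (97.0 ± 2.15, SD, n = 2), above Lhx1 in both libraries on this per-length scale, although its counts were lower, 820 and 1003 against 2816 and 3348. Its log2 ratio between the pools was -0.08 (adjusted p = 0.462, exact binomial test).

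The 124 bases between the 2 starts, chr11:84525536-84525659, are printed because both genes are transcribed away from them. They are given on the plus strand, from the RefSeq promoter sequence on GRCm38.p6, with each CG in capitals.
Lhx1 to Lhx1os: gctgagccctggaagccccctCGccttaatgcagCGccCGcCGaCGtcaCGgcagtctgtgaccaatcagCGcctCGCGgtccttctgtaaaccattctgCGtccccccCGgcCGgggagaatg
This stretch is 66.1% G or C and holds 12 CG, or 9.68 per 100 bases. Over 32851 promoter sequences of 300 bases in the same table, the medians were 52.7% and 2.33 CG per 100 bases. No methylation or binding was measured, and the letters are a description of the stretch.

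Gm27199, antisense to Lhx5, overlaps its first 69 bases and was at 23.8 and 21.7 TPM (log2 ratio -0.17, adjusted p = 0.447, exact binomial test). Gm27197 and Gm13584, both antisense, lie within Lhx2. Gm27197 was at 4.16 and 4.35 TPM, and Gm13584 at 1.12 and 0.18 TPM from 10 and 2 counts. AI606473, which starts 162 bases from Lhx8, had 7 and 1 counts. Gm17226 at Isl2 had 0 and 1 counts, and Gm27196 at Lhx3 and Gm27953 at Lhx6 had 0 in both. Whether the counting used strand is not given in the sources used here, so reads of overlapping antisense pairs may not have been told apart.

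Markers of regions and cell types that the dissected tissue could hold were read beside the family, since LIM homeobox genes are also expressed next to the midbrain and outside it. Tectal and midbrain glutamatergic genes, led by Pou4f1 at 90.3 and 81.9 TPM and Nhlh2 at 82.2 and 81.5 TPM, were all 10 at 1 TPM or more in both libraries. Midbrain GABAergic genes, led by Gata3 at 67.8 and 63.9 TPM and Gad2 at 52.2 and 44.0 TPM, were too. In both lists 0 of 10 genes were called by the exact binomial test, near the 3.55% of all genes, and 0 had an adjusted p under 0.05 in the negative binomial test of edgeR. At an unadjusted p under 0.05 there were 5 glutamatergic and 7 GABAergic genes by the binomial test, and 1 and 0 by the negative binomial test.

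Most of the forebrain markers called were lower in replicate 2. The thalamus and pretectum list summed to 925 TPM in replicate 1 and 691 TPM in replicate 2, with 4 of 10 called, all lower in replicate 2, and a median log2 ratio of -0.25. All 4 calls held in the negative binomial exact test. Olig3, a thalamic progenitor gene, was at 52.9 and 9.26 TPM, Pax6 at 60.02 and 17.7 TPM, Barhl2 at 12.5 and 6.91 TPM and Tcf7l2 at 444 and 283 TPM. Dbx1, the other leading gene of the list, was at 142 and 152 TPM.

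The hypothalamus and prethalamus list summed to 142 and 97.8 TPM, with 3 of 12 called, all lower in replicate 2, and a median of -0.39. Dlx1 was at 48.2 and 30.6 TPM and Nkx2-1 at 7.48 and 4.29 TPM, while Six3 at 20.2 and 16.3 TPM was not called. Dlx1 had an adjusted p of 0.0671 in the negative binomial exact test, and the other 2 calls held. The telencephalon list summed to 58.1 and 46.5 TPM, with 5 of 10 called lower, 1 higher and a median of -1.07. Emx1, Tbr1, Eomes, Fezf2 and Neurod6 were the 5 called lower, and 4 genes of the list had an adjusted p under 0.05 in the negative binomial exact test, where Neurod6 was at 0.0658. The 2 leading genes of that list, Emx2 at 19.1 and 14.8 TPM and Bcl11b at 12.9 and 15.9 TPM, were not called.

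The midbrain and isthmus list summed to 380 and 451 TPM, with a median of 0.29. Cnpy1, at 77.7 and 122 TPM, and Fgf17 were called higher in replicate 2, Fgf8 and Wnt1 were called lower, and Otx2 was at 147 and 142 TPM. None of these 4 calls held in the negative binomial exact test (adjusted p 0.112 for Cnpy1, 0.0596 for Fgf17, 0.246 for Wnt1 and 0.586 for Fgf8). With the main size factors, Isl1 was thus lower in the pool with less RNA of forebrain markers. So, by smaller amounts and not with spike-in size factors, were Lhx2, Lhx9, Lhx1 and Lhx5. Spike-in size factors shifted the median log2 ratio of all genes by 0.28, more than the thalamus and pretectum median of -0.25. The marker lists were read with the main size factors only. The part of these marker differences in the LIM homeobox values was not tested.

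**Figure D4:**
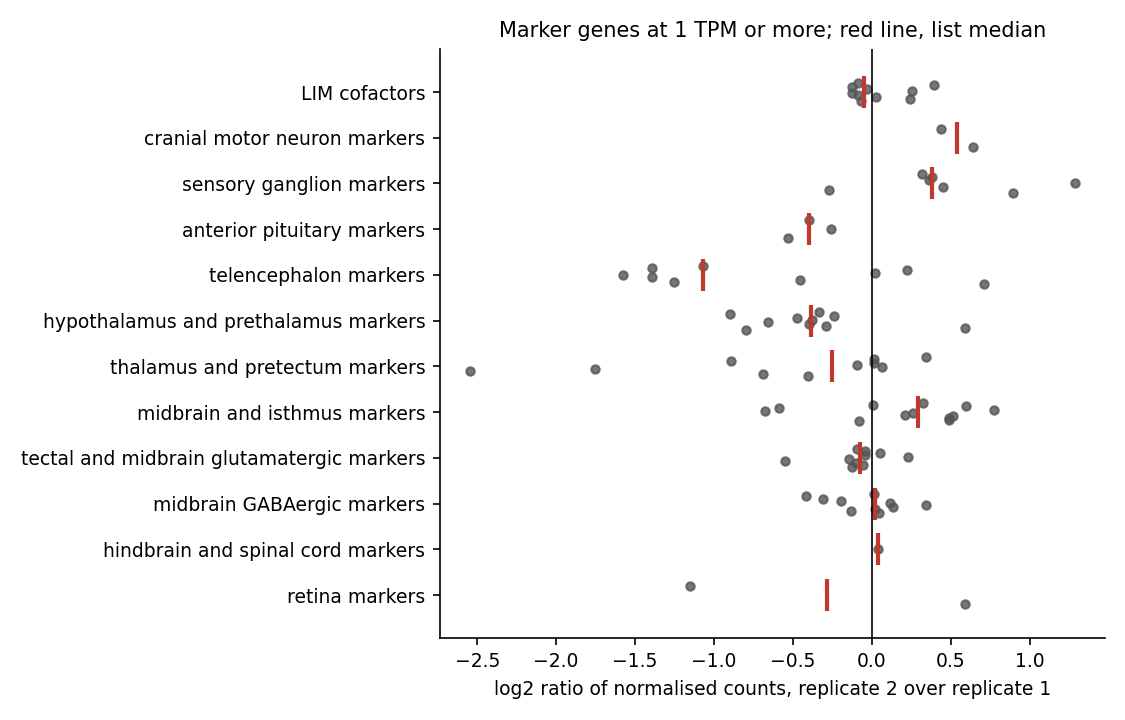
Log2 ratio of normalised counts, replicate 2 over replicate 1, for each gene at a mean of 1 TPM or more in the cofactor and marker lists (points), with the median of each list as a red line. The medians of the telencephalon, hypothalamus and prethalamus, and thalamus and pretectum lists lie at -1.07, -0.39 and -0.25, and those of the tectal glutamatergic and GABAergic lists at -0.07 and 0.02.

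Lists for other sites of Isl1, Isl2, Lhx3 and Lhx4 expression were also read. Cranial motor neuron markers summed to 6.51 and 9.64 TPM, and 5 of 8 were under 1 TPM in both libraries, among them Chat, the acetylcholine-synthesising enzyme, at 0.06 and 0.02 TPM. Slc5a7, the choline transporter, was called higher in replicate 2 at 0.96 and 1.53 TPM, a call lost in the negative binomial exact test (adjusted p = 0.441), and Prph led the list at 4.02 and 5.62 TPM. Isl1 alone, at 31.3 and 17.3 TPM, was above the sum of this list in both libraries.

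Sensory ganglion markers summed to 79.5 and 98.0 TPM, led by Sncg at 41.0 and 52.4 TPM and Prdm12 at 20.5 and 17.4 TPM. In this list 2 genes were called, both higher in replicate 2, among them Runx1 at 1.06 and 2.84 TPM. The median was 0.38 and Scn10a was at 0. Anterior pituitary markers summed to 73.1 and 61.5 TPM, of which Pomc gave 6.53 and 5.06 TPM. Pou1f1, which is in the pituitary list, was at 0 in both libraries. Lhx4 and Isl2 were higher, and Isl1 lower, in the pool with the larger sums of sensory ganglion and motor neuron markers. Isl2 had an adjusted p of 0.964 in the negative binomial exact test. In that test 2 sensory ganglion genes and 0 motor neuron genes had an adjusted p under 0.05. The part of those cells in the values of Lhx4, Isl2 and Isl1 was not tested.

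Hindbrain and spinal cord markers summed to 8.31 and 8.81 TPM, and Hoxb4 was at 0. Retina markers summed to 4.84 and 5.22 TPM with Nrl at 0. Rlbp1 was called lower in replicate 2 at 1.78 and 0.82 TPM (adjusted p = 0.0755 in the negative binomial exact test). Rax, which the hypothalamus list also holds, had the highest mean of the retina list, at 1.53 and 2.38 TPM.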

How the data were processed

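Per the file headers, the authors' tables have the columns of an RSEM output, on mm10 with GENCODE M4, per the labels and submitters' notes. Neither aligner nor strand setting is given in the sources used here. The deposited expected counts are estimated and need not be whole. The deposited TPM values are normalised to effective length (annotated length minus 99) and library, and the deposited isoform percent is a transcript's share of its gene. The authors' 95% credibility intervals of TPM, read as signal values, are deposited beside them. The labels' protocols link the manual of a SMARTer Ultra Low kit. The labels number the pools as separate biological replicates, and p-values compare these 2 libraries only.

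Names and coordinates came from GENCODE M21, in which 42462 of 43346 gene identifiers matched. Of the 49 transcripts 45 matched, 43 of them with the same length in both releases. Expected counts were rounded, spike-ins and rows without a gene identifier left out of library sizes, and TMM factors (0.995 and 1.005) taken from edgeR 4.0.16 in R 4.3.3. Genes with at least 10 counts summed were tested with a two-sided exact binomial test and Benjamini-Hochberg adjustment. Log2 ratios had 0.5 counts added. Intervals are 95% exact (Clopper-Pearson) and cover counting error only. The negative binomial exact test of edgeR used a common coefficient of variation of 0.0939. In simulated data for replicate 2 against replicate 1, with 18939 genes and counting error only, the calls took in 87% of 2-fold changes, 94% of 4-fold changes and 1 unchanged gene.

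Alternatives were DESeq2 1.42.0, total and spike-in size factors, other thresholds and pseudocounts, posterior mean values and leaving out each library. Software was scipy 1.17.1, pandas 2.3.3 and numpy 2.4.6 under Python 3.11.15. The members and lists were chosen with earlier results of these data known. All members and cofactors are named, the 2 highest genes of each marker list with those called, and noncoding neighbours within 5 kb. No gene was named for a like pattern, since 2 libraries give none. Some list genes are left unnamed here, though sums, medians and counts of the lists include them. Drgx had no measured gene under that name. Protein sequences were not used here.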

Additional observations from a re-analysis of the deposited data

How the results depend on the processing

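Isl1 and Lhx4 were called under DESeq2 and total-count size factors, with no filter on counts and by the negative binomial exact test. With a 2-fold threshold 1 LIM homeobox gene was called, Lhx4. With no minimum of TPM 3 were, Lhx8 being added. Size factors from spike-in RNA shifted the median log2 ratio of all genes by 0.28 and moved the share of calls that were higher in replicate 2 from 60.3% to 91.0%. With them 2 LIM homeobox genes were called, Isl2 at a log2 ratio of 0.69 and Lhx4, Isl1 was at -0.53 and under the fold threshold, and 1 cofactor was called, Lmo4. The ratios of 5 genes then changed sign, to 0.16 for Lhx1, 0.027 for Lhx2, 0.080 for Lhx5, 0.18 for Lhx6 and 0.0043 for Lhx9, and the cause was not tested. From posterior mean TPM, the ratio of Lhx6 was 0.091, and the level of Lhx3 was 0.29 TPM. From deposited TPM, Isl2 was at 0.63. With a pseudocount of 0.1 TPM, the log2 difference of Lhx3 and Lhx4 was -3.33 and that of Lhx6 and Lhx8 was 1.57, since both pairs hold a gene under 1 TPM. The share of Lhx9 in complete coding transcripts without the homeobox core, an alternative chosen after seeing the data, was 42.9% from posterior mean percents, and 43.4% to 44.7% with either library left out. Leaving out a library gave Isl1 minus Isl2 as 1.27 to 2.62, and the sign of each of the 5 pair differences stayed as reported. It leaves no comparison of the pools, so the calls rest on 1 library each. No paired analysis was possible because the study has 1 group. Depth limits Lhx3, at 4 counts per library, and Lhx8, at 25 and 12.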
